A study of Mus musculus with 8 samples.

Results

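The genes described here encode the machinery that carries proteins into mitochondria. They were chosen by name: every gene whose symbol begins with Timm or Tomm followed by a number, together with Hspd1, Hspe1, Hspa9, Pam16, Dnajc19, Grpel1, Samm50, Mtx1 and Mtx2, on probe sets that the platform annotation gives to exactly 1 gene. This rule found 33 genes on 42 of the 21789 probe sets with 1 gene, and 32 of the 33 passed the filter on low signal that left 13356 genes in all. The remaining gene, Timm8a2, had log2 signals between 2.47 and 3.38 and was not tested.

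The signals came from Affymetrix arrays of 3 dendritic cell (DC) progenitor populations sorted from mouse bone marrow: pre-CD8 DCs on 2 arrays, Zeb2low common DC progenitors (CDPs) on 3 arrays and Zeb2hi CDPs on 3 arrays. A CDP is a progenitor of classical and plasmacytoid DCs, and a pre-CD8 DC is a precursor already directed to the CD8+ classical DC lineage (cDC1). All 3 groups carried the same heterozygous reporter, in which GFP is fused to the transcription factor Zeb2, and the CDPs were named by their reporter level. The labels give no age, sex or sort marker and do not say whether arrays of a group came from separate mice, so each p-value reflects the spread among these arrays, part or all of which may be technical.

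Most mitochondrial proteins are made in the cytosol and enter the organelle as unfolded precursors through the TOM complex of the outer membrane. From there the SAM complex places beta-barrel proteins in the outer membrane, the small TIM chaperones and the TIM22 complex deliver carrier proteins to the inner membrane, and the TIM23 complex with its Hsp70 motor pulls proteins with a presequence into the matrix. In the matrix the chaperonin of Hspd1 (Hsp60) and Hspe1 (Hsp10) folds many of them.

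Across the 8 arrays the median log2 signal of all probe sets lay between 4.91 and 5.14, and the correlation between arrays across genes was 0.937 to 0.989 within groups and 0.873 to 0.966 between groups. Zeb2 itself had log2 signals of 6.93 and 6.53 in pre-CD8 DCs, 7.49, 7.69 and 7.86 in Zeb2low CDPs, and 9.45, 9.05 and 9.32 in Zeb2hi CDPs. The CDP groups were thus in the order of their labels, which give no level for pre-CD8 DCs. Of 8 tested cDC1 genes, 6 were higher in pre-CD8 DCs and 4 in Zeb2low CDPs than in Zeb2hi CDPs, but the cDC1 gene Xcr1 was at 7.57 on pre-CD8 DC array 1 and 5.03 on array 2. The summed signal of 10 mature neutrophil genes, on the log2 scale, was 15.74 and 14.83 in pre-CD8 DCs, 14.51, 15.53 and 15.05 in Zeb2low CDPs, and 13.79, 14.34 and 13.40 in Zeb2hi CDPs. Between groups it was thus lowest in Zeb2hi CDPs, where most import genes were highest. Within groups it did not move opposite to the mean of the import genes on these arrays. Pre-CD8 DC array 1 and Zeb2hi CDP array 2 were the highest of their groups in both, and Zeb2low CDP array 1 the lowest. By the limma test used throughout, 4 of the 10 neutrophil genes were higher in pre-CD8 DCs and 3 in Zeb2low CDPs than in Zeb2hi CDPs. The summed log2 signals of the other marker lists ranged from 5.98 to 6.77 for 3 measured erythroid genes, 5.49 to 6.41 for 4 B cell genes and 6.36 to 7.49 for 5 T and NK cell genes. The B cell and the T and NK cell sums of all 5 pre-CD8 DC and Zeb2low CDP arrays lay above those of all Zeb2hi CDP arrays. Against Zeb2hi CDPs, the B cell gene Cd79a was higher both in pre-CD8 DCs (adjusted p = 0.0166) and in Zeb2low CDPs (adjusted p = 0.0204), as was the T cell gene Cd3e (adjusted p = 0.0357 and 0.0283). The part of these cells in the results on import genes was not tested. In sorted bulk samples, fewer cells of a type and less RNA per cell cannot be told apart.

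The promoters of 6 genes that recur in the results are shown as 300 base windows from RefSeq (build GRCm38.p6), running from 250 bases before the annotated start to 50 after it. They were chosen after the values were seen: Tomm5, Timm9, Tomm20, Tomm22 and Hspe1 among the genes that fell, and Pam16, the member with the largest positive difference in Zeb2low CDPs. The windows lie at chr4:45108064-45108363 on the minus strand for Tomm5, chr12:71136626-71136925 minus for Timm9, chr8:126945872-126946171 minus for Tomm20, chr15:79670618-79670917 plus for Tomm22, chr1:55087898-55088197 plus for Hspe1 and chr16:4624897-4625196 minus for Pam16. Capitals mark matches, on either strand, to CACGTG (the E-box that Myc and USF proteins bind), the NRF1 motif (GCGC and TGCGC with any base between them) and CCGGAAG (an ETS motif); a match is a description of the letters and not a shown binding site.
Tomm5: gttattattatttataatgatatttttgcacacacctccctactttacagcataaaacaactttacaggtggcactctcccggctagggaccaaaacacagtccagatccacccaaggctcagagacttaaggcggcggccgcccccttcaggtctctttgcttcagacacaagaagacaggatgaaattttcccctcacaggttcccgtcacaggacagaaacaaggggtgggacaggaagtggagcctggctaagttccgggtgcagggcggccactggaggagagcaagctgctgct
Timm9: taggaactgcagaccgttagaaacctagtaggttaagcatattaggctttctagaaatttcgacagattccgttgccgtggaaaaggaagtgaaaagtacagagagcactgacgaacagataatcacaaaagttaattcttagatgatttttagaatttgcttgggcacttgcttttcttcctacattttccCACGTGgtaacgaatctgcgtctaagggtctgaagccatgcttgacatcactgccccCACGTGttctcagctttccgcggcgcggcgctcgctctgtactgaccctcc
Tomm20: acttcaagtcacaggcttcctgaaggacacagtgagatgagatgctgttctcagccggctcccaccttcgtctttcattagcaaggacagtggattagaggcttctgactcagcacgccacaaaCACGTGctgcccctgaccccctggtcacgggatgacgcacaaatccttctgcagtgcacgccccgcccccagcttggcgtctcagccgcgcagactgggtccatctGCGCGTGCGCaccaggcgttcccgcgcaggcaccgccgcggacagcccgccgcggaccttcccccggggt
Tomm22: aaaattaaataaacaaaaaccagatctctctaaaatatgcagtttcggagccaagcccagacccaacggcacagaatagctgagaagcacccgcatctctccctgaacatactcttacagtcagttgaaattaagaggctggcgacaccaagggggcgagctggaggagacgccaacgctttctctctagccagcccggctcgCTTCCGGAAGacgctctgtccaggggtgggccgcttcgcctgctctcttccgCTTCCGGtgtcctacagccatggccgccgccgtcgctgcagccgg
Hspe1: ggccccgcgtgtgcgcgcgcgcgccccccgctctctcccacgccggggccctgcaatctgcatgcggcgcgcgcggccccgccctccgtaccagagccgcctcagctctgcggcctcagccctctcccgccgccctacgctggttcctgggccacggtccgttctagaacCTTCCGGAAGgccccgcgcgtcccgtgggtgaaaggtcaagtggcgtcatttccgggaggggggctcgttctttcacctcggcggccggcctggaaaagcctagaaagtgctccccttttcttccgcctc
Pam16: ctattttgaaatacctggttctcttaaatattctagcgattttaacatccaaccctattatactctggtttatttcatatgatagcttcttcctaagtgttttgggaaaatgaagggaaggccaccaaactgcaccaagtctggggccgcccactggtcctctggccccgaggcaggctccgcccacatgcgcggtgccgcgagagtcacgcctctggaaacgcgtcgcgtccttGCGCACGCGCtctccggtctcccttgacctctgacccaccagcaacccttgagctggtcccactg
The Timm9 window holds CACGTG at 2 places, the Tomm20 window an E-box and an NRF1 match, the Tomm22 and Hspe1 windows ETS matches, the Pam16 window an NRF1 match, and the Tomm5 window none of the 3 motifs. Hspe1 and Hspd1 lie on opposite strands of chromosome 1, and Hspd1 has 2 annotated starts there. The start that stands head to head with Hspe1 is 216 bases away, and its window shares 285 bases with the Hspe1 window. The other lies 95 bases away, downstream of the Hspe1 start, and its window shares 4 bases.

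Windows were found for 29 of the 33 genes, 32 windows in all, and all but Hspa9, Timm21, Tomm40l and Tomm7 are covered. The ETS letters stood in 14 of the 32 windows, which is 43.8% against 8.86% of all 32851 promoter windows. Overlapping windows count some sites more than once: the Hspe1 window shares its ETS matches with an Hspd1 window, and both Tomm34 windows hold a common match. By gene, 13 of the 29 with a window held the ETS letters. E-box letters stood in 6 windows (18.8% against 7.15% of all windows) and NRF1 letters in 4 (12.5% against 4.6%). The genes with an E-box were Hspd1, Timm10, Timm8a1, Timm9, Tomm20 and Tomm20l. Of the genes with a window, 4 of the 14 that fell in Zeb2low against Zeb2hi CDPs and 2 of the other 15 held an E-box, and 5 of 14 and 8 of 15 held the ETS letters. NRF1 letters stood in 2 of 14 and 2 of 15.

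Averaged over the 32 tested genes, the log2 signal was 7.55 and 7.38 on the pre-CD8 DC arrays, 7.37, 7.42 and 7.44 on the Zeb2low CDP arrays, and 8.06, 8.42 and 8.31 on the Zeb2hi CDP arrays. All 5 arrays of pre-CD8 DCs and Zeb2low CDPs therefore lay below all 3 Zeb2hi CDP arrays. The same held gene by gene for 18 of the 32 (56.2%, against 16.2% of all genes). Zeb2hi CDP array 1 was the lowest of its group for 20 of the 32 genes (62.5%, against 41.2% of all genes), and it was over 0.5 log2 units below the mean of the other 2 arrays for 11 (34.4%, against 11.4%). The median range over the Zeb2hi CDP arrays was 0.443 for the import genes and 0.328 for all genes, and over the Zeb2low CDP arrays it was 0.322 and 0.401.

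**Figure D1:**
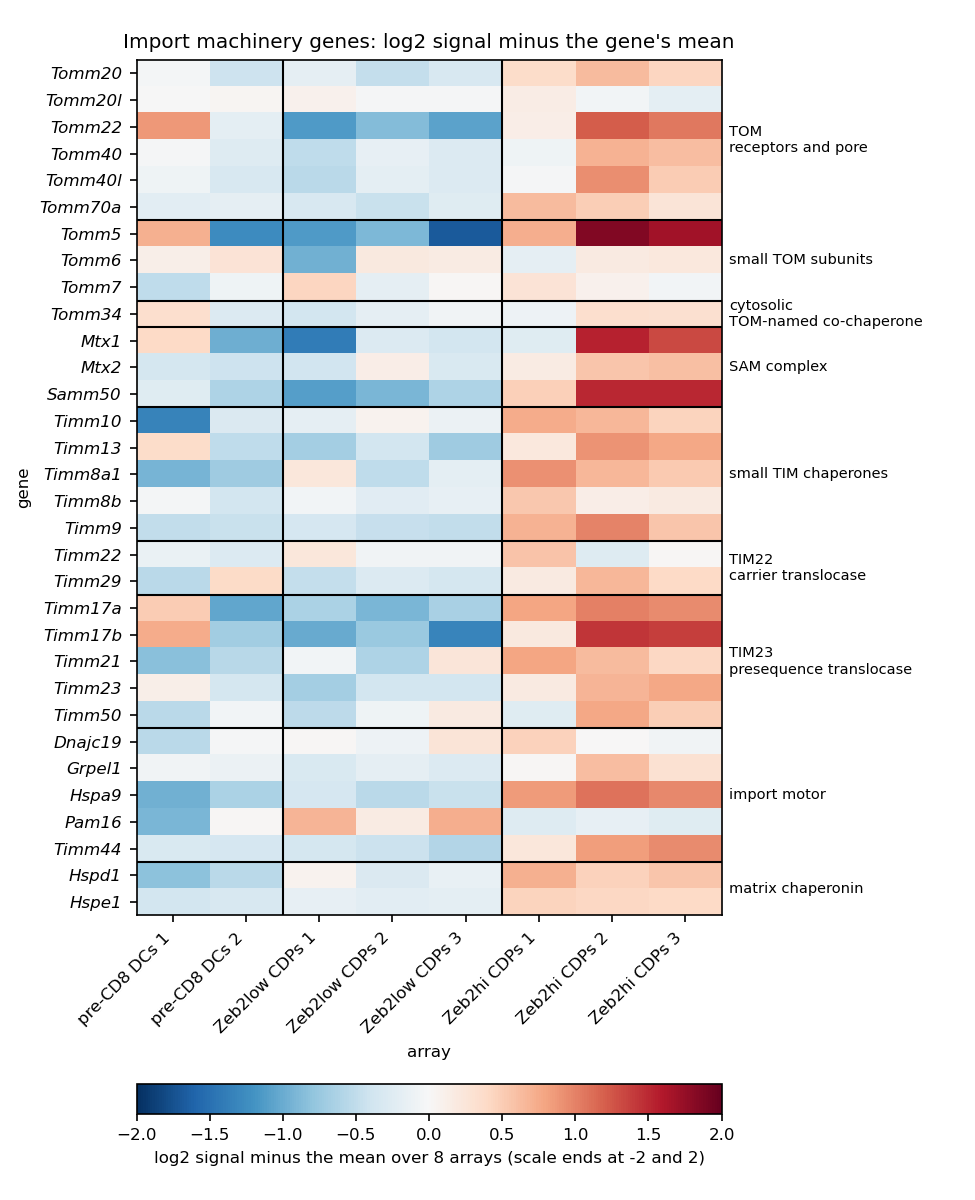
Log2 signal of each of the 32 tested import genes (rows, grouped by role) on each of the 8 arrays (columns), minus the mean of that gene over the arrays; red is above and blue below the mean. The 3 Zeb2hi CDP arrays on the right are mostly red, array 1 less so than arrays 2 and 3, and Pam16 is highest on the Zeb2low CDP arrays.

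Most import genes had a lower signal in Zeb2low CDPs than Zeb2hi CDPs had; the groups share the CDP label and differ in the reporter level by which they were named. Of the 32 genes, 15 fell and none rose (adjusted p under 0.05, limma with Benjamini-Hochberg adjustment over all 13356 genes), while 10.3% of all genes were called lower and 4.5% higher. At an unadjusted p under 0.05, 24 genes were lower and 1, Pam16, was higher, while 19.6% of all genes were lower and 13.2% higher. The log2 difference was negative for 30 genes, with a median of -0.77 against 0.03 over all genes. All Zeb2low CDP arrays lay below all Zeb2hi CDP arrays for 24 of the 32 (background 21.5% of all genes), and above them for Pam16 alone (background 20.2%). The genes that fell by at least 2-fold were 10 of the 15: Tomm5, Samm50, Timm17b, Tomm22, Timm17a, Hspa9, Timm13, Timm9, Timm44 and Timm23, while 4.19% of all genes fell that far. With the CDP arrays alone and the replicate number as a block, 24 genes fell, among them all 15, and Pam16 rose, in a fit that called 19% of all genes lower and 11.5% higher. With the block on all 8 arrays 15 genes fell, 14 of them among the original 15, and none rose. That fit called 8.46% of all genes lower and 3.16% higher. In it Hspd1 missed the threshold, and Timm29 was the only gene outside the original 15 to pass. The summed neutrophil signal was higher on each Zeb2low CDP array than on any Zeb2hi CDP array.

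Pre-CD8 DCs were also mostly lower than Zeb2hi CDPs, in a comparison that uses the same Zeb2hi CDP arrays. Of the 32 genes, 12 fell and none rose, while 11.1% of all genes were called lower and 6.51% higher. At an unadjusted p under 0.05 by limma, 18 were lower and 0 higher, against 19.6% and 12.2% of all genes. The difference was negative for 30 genes, with a median of -0.69 against -0.02 over all genes. Both pre-CD8 DC arrays lay below all Zeb2hi CDP arrays for 19 genes (background 27.1%), and above them for none (background 21.4%). The genes Hspa9, Hspd1, Hspe1, Samm50, Timm44, Timm8a1, Timm9, Tomm20 and Tomm70a fell in both comparisons, Mtx2, Timm10 and Timm21 passed the test against Zeb2hi CDPs in pre-CD8 DCs alone, and Timm13, Timm17a, Timm17b, Timm23, Tomm22 and Tomm5 passed it in Zeb2low CDPs alone. Passing in 1 comparison alone does not show a difference between pre-CD8 DCs and Zeb2low CDPs, and none of these 9 genes passed the test between them. The neutrophil sum was higher on both pre-CD8 DC arrays than on any Zeb2hi CDP array.

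**Figure D2:**
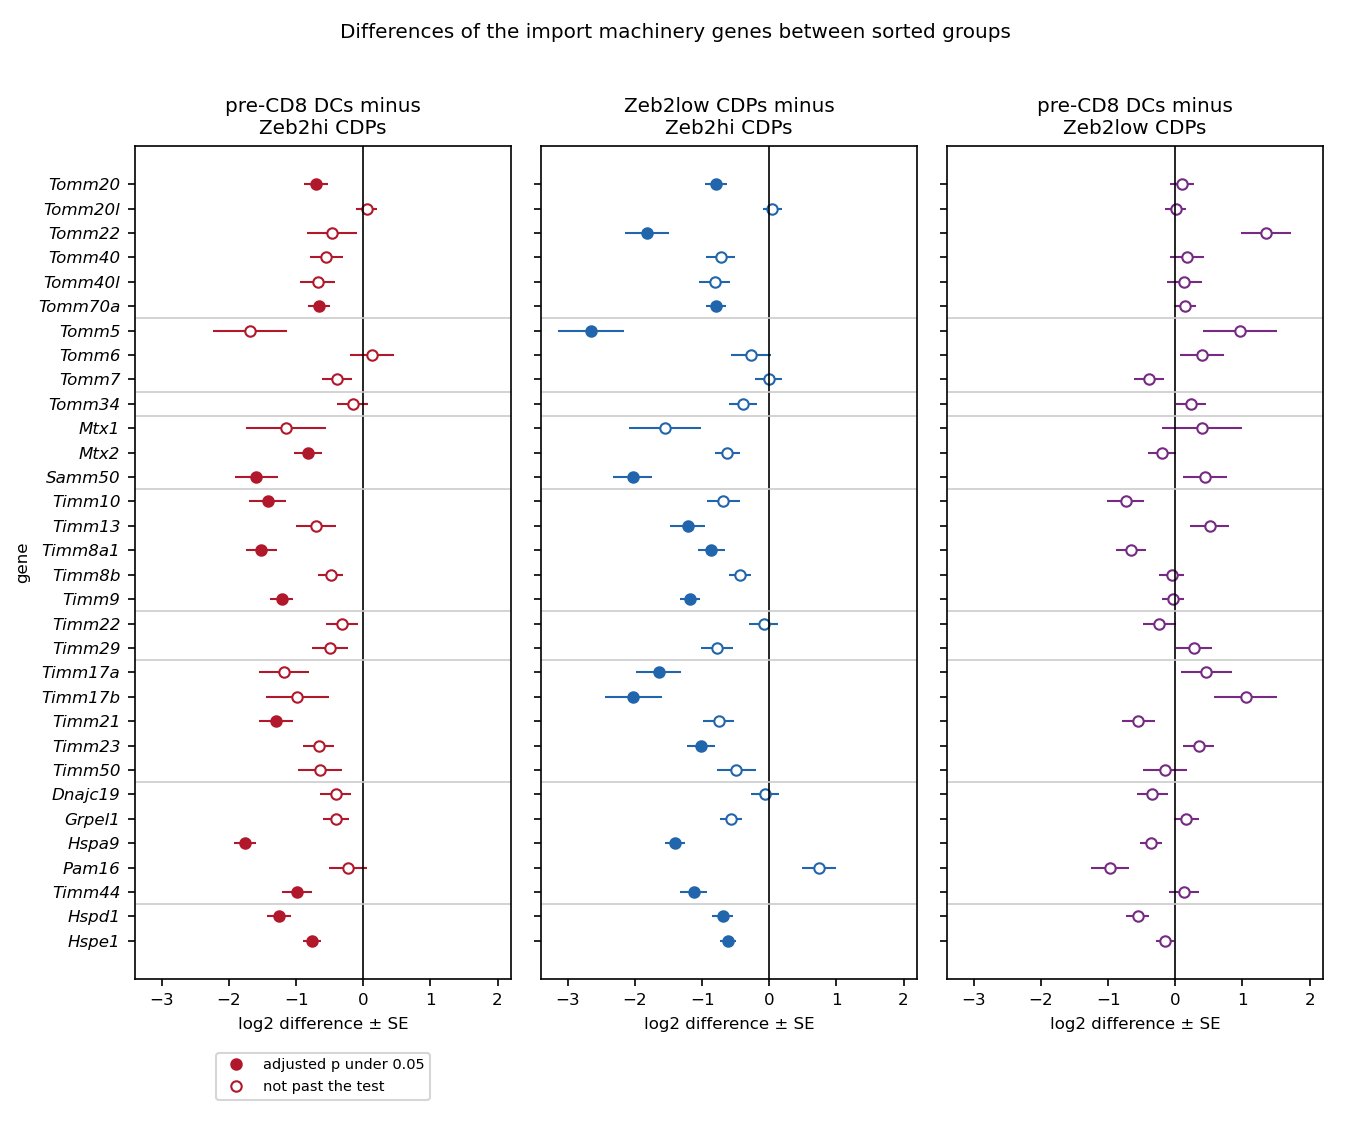
Log2 difference of each import gene with its standard error (limma) for pre-CD8 DCs minus Zeb2hi CDPs, Zeb2low CDPs minus Zeb2hi CDPs and pre-CD8 DCs minus Zeb2low CDPs; filled points passed an adjusted p of 0.05. The 12 and 15 filled points of the panels against Zeb2hi CDPs all lie left of 0, and no point is filled in the panel between pre-CD8 DCs and Zeb2low CDPs.

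Among the TOM receptors and the pore, 2 of 6 fell in pre-CD8 DCs and 3 of 6 in Zeb2low CDPs against Zeb2hi CDPs. Tomm22, the central receptor that also holds the complex together, had log2 signals of 7.99 and 6.92 in pre-CD8 DCs, 5.997, 6.26 and 6.05 in Zeb2low CDPs, and 7.26, 8.34 and 8.17 in Zeb2hi CDPs. Its 3 Zeb2low CDP arrays lay below all others, and it was 3.53-fold lower in Zeb2low than in Zeb2hi CDPs (log2 difference -1.82 ± 0.33 with its standard error, adjusted p = 0.0109). Its pre-CD8 DC arrays overlapped the Zeb2hi CDP arrays, with a difference of -0.47 ± 0.37 and an adjusted p of 0.433. Tomm20, the receptor for presequences, had 9.05 and 8.66 in pre-CD8 DCs, 8.91, 8.61 and 8.77 in Zeb2low CDPs, and 9.45, 9.71 and 9.52 in Zeb2hi CDPs. All 5 arrays of pre-CD8 DCs and Zeb2low CDPs were below the Zeb2hi CDP arrays, with differences of -0.70 ± 0.18 in pre-CD8 DCs (adjusted p = 0.0303) and -0.80 ± 0.16 in Zeb2low CDPs (adjusted p = 0.0159). Tomm70a, the receptor that takes carrier precursors from cytosolic chaperones, had 7.61 and 7.63 in pre-CD8 DCs, 7.49, 7.37 and 7.58 in Zeb2low CDPs, and 8.45, 8.31 and 8.08 in Zeb2hi CDPs. It fell by 1.58-fold in pre-CD8 DCs (adjusted p = 0.0254) and 1.74-fold in Zeb2low CDPs (adjusted p = 0.0108), again with no overlap. The pore gene Tomm40 and its paralogue Tomm40l missed the threshold in Zeb2low CDPs, at -0.73 ± 0.22 (adjusted p = 0.0587) and -0.81 ± 0.24 (adjusted p = 0.0502). They passed it with the replicate block on the CDP arrays (adjusted p = 0.012 and 0.00966) and not with the block on all arrays. With quantile normalisation the Tomm20 calls ended in pre-CD8 DCs (-0.55, adjusted p = 0.0725) and Zeb2low CDPs (-0.51, adjusted p = 0.0732), and so did the Tomm70a call in pre-CD8 DCs (-0.55, adjusted p = 0.0604). Tomm20l, a paralogue of Tomm20, had log2 differences near 0.05 in both comparisons (adjusted p = 0.857 in pre-CD8 DCs and 0.836 in Zeb2low CDPs). Its signal stayed between 4.44 and 4.79 on all arrays.

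Of the small TOM subunits, Tomm5 fell and Tomm6 and Tomm7 did not pass the test. Tomm5 had log2 signals of 8.17 and 6.19 in pre-CD8 DCs, 6.32, 6.56 and 5.77 in Zeb2low CDPs, and 8.18, 9.31 and 9.13 in Zeb2hi CDPs. Its Zeb2low CDP arrays were all below its Zeb2hi CDP arrays, pre-CD8 DC array 1 came just under the lowest Zeb2hi CDP array, and pre-CD8 DC array 2 was among the Zeb2low CDP arrays. The signal was 6.31-fold lower in Zeb2low than in Zeb2hi CDPs (-2.66 ± 0.49, adjusted p = 0.0114), the largest fall among the import genes and rank 4 among the falls of all 13356 genes. Without Zeb2hi CDP array 2 it was -2.44 with an adjusted p of 0.0554, and without array 3 -2.53 with 0.0542. In pre-CD8 DCs the difference from Zeb2hi CDPs was -1.69 ± 0.55 (adjusted p = 0.0662). Tomm6 had differences of 0.13 in pre-CD8 DCs and -0.27 in Zeb2low CDPs, and Tomm7 had -0.40 and -0.01. Tomm34, a cytosolic co-chaperone of Hsp70 and Hsp90 named after the complex, had 8.49 and 7.88 in pre-CD8 DCs, 7.78, 7.98 and 8.09 in Zeb2low CDPs, and 8.06, 8.49 and 8.48 in Zeb2hi CDPs. These arrays overlapped, with adjusted p = 0.683 in pre-CD8 DCs and 0.216 in Zeb2low CDPs.

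The SAM complex inserts beta-barrel proteins, TOM's own pore among them. Samm50, its central barrel, had log2 signals of 7.05 and 6.68 in pre-CD8 DCs, 6.19, 6.39 and 6.69 in Zeb2low CDPs, and 7.77, 8.81 and 8.81 in Zeb2hi CDPs. No array overlapped with Zeb2hi CDPs: the gene was 3.02-fold lower in pre-CD8 DCs (-1.59 ± 0.32, adjusted p = 0.012) and 4.1-fold lower in Zeb2low CDPs (-2.04 ± 0.29, adjusted p = 0.00456). Mtx2, a metaxin of the same complex, had 5.81 and 5.74 in pre-CD8 DCs, 5.78, 6.30 and 5.86 in Zeb2low CDPs, and 6.32, 6.71 and 6.76 in Zeb2hi CDPs. It passed the test in pre-CD8 DCs (-0.82 ± 0.21, adjusted p = 0.0289) and not in Zeb2low CDPs (-0.62 ± 0.19, adjusted p = 0.0572), where the highest array came just under the lowest Zeb2hi CDP array. With the replicate block on the CDP arrays the Zeb2low difference of Mtx2 passed (adjusted p = 0.0193). With the block on all arrays neither of its differences passed. Mtx1, its partner, differed by -1.15 ± 0.60 in pre-CD8 DCs and -1.55 ± 0.54 in Zeb2low CDPs, with adjusted p of 0.227 and 0.0855. The Zeb2low difference of Mtx1 passed with the replicate block on the CDP arrays (adjusted p = 0.00154) and not with it on all arrays (0.115). Its Zeb2hi CDP arrays were 1.78 log2 units apart, the widest range of any import gene within a group of CDPs.

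The small TIM chaperones guide hydrophobic precursors across the intermembrane space, and 3 of the 5 tested fell in each comparison with Zeb2hi CDPs. Timm9, which forms a hexamer with Timm10, had log2 signals of 5.92 and 5.97 in pre-CD8 DCs, 6.07, 5.95 and 5.91 in Zeb2low CDPs, and 7.10, 7.41 and 6.97 in Zeb2hi CDPs. Pre-CD8 DCs and Zeb2low CDPs were close together and both clear of Zeb2hi CDPs, at -1.21 ± 0.17 (adjusted p = 0.00265) and -1.18 ± 0.15 (adjusted p = 0.00313). Timm10 had 6.03 and 7.06 in pre-CD8 DCs, 7.18, 7.43 and 7.25 in Zeb2low CDPs, and 8.10, 8.02 and 7.80 in Zeb2hi CDPs. It was 2.69-fold lower in pre-CD8 DCs than in Zeb2hi CDPs (adjusted p = 0.0099), while the 1.61-fold difference of Zeb2low CDPs missed the threshold (adjusted p = 0.0945). That difference passed with the replicate block on the CDP arrays (adjusted p = 0.0111) and not with the block on all arrays. Timm8a1 and Timm13 form the other hexamer, which handles Timm23 among its clients. Timm8a1 had 7.01 and 7.23 in pre-CD8 DCs, 8.17, 7.43 and 7.75 in Zeb2low CDPs, and 8.86, 8.61 and 8.46 in Zeb2hi CDPs, and its groups did not overlap. It fell by 2.87-fold in pre-CD8 DCs (adjusted p = 0.00371) and 1.82-fold in Zeb2low CDPs (adjusted p = 0.0268), a call that ended with quantile normalisation (-0.67, adjusted p = 0.101). Timm13 had 8.43 and 7.56 in pre-CD8 DCs, 7.38, 7.70 and 7.36 in Zeb2low CDPs, and 8.28, 8.97 and 8.84 in Zeb2hi CDPs; pre-CD8 DC array 1 lay within the Zeb2hi CDP range, and only Zeb2low CDPs passed the test (-1.22 ± 0.26, adjusted p = 0.0193, against 0.136 in pre-CD8 DCs). Timm8b, a relative of Timm8a1, differed by -0.49 ± 0.18 in pre-CD8 DCs (adjusted p = 0.104) and -0.43 ± 0.16 in Zeb2low CDPs (adjusted p = 0.109). The Zeb2low difference of Timm8b passed with the replicate block on the CDP arrays (adjusted p = 0.0438) and not with the block on all arrays.

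Neither gene of the TIM22 carrier translocase passed the test in the main fit, though Timm29 passed it in Zeb2low CDPs under several alternatives. Timm29, a subunit found in animals, had 4.81 and 5.72 in pre-CD8 DCs, 4.87, 5.08 and 5.00 in Zeb2low CDPs, and 5.53, 6.02 and 5.75 in Zeb2hi CDPs. Its Zeb2low CDP arrays lay below the Zeb2hi CDP arrays (-0.78 ± 0.24, adjusted p = 0.0596), and pre-CD8 DC array 2 lay among the Zeb2hi CDP arrays. For Zeb2low CDPs the adjusted p was 0.00602 with the replicate block on the CDP arrays and 0.0437 with quantile normalisation (-0.87). Timm22, the channel, differed by -0.32 ± 0.24 in pre-CD8 DCs and -0.08 ± 0.22 in Zeb2low CDPs.

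In the TIM23 presequence translocase, 1 of 5 genes fell in pre-CD8 DCs and 3 of 5 in Zeb2low CDPs. Timm17a, one form of the channel subunit that sits beside Timm23, had log2 signals of 8.47 and 6.92 in pre-CD8 DCs, 7.33, 7.05 and 7.32 in Zeb2low CDPs, and 8.75, 8.98 and 8.91 in Zeb2hi CDPs. The other form, Timm17b, had 7.06 and 5.61 in pre-CD8 DCs, 5.31, 5.58 and 4.99 in Zeb2low CDPs, and 6.52, 7.74 and 7.70 in Zeb2hi CDPs. Both forms were lower on all Zeb2low CDP arrays, by 3.13-fold for Timm17a (-1.65 ± 0.33, adjusted p = 0.0157) and 4.07-fold for Timm17b (-2.03 ± 0.42, adjusted p = 0.0175). In pre-CD8 DCs, where array 1 was over 2-fold above array 2 for both, the differences from Zeb2hi CDPs were -1.18 ± 0.37 (adjusted p = 0.0608) and -0.98 ± 0.47 (adjusted p = 0.198). Timm23, the core channel subunit, had 8.70 and 8.22 in pre-CD8 DCs, 7.90, 8.20 and 8.21 in Zeb2low CDPs, and 8.76, 9.26 and 9.35 in Zeb2hi CDPs. It fell by 2.02-fold in Zeb2low CDPs (adjusted p = 0.0157) and missed the threshold in pre-CD8 DCs at -0.67 ± 0.23 (adjusted p = 0.0818), although no array overlapped with Zeb2hi CDPs. Timm21, which links TIM23 to TOM in yeast, passed the test in pre-CD8 DCs instead, with 6.20 and 6.46 in pre-CD8 DCs, 6.96, 6.41 and 7.27 in Zeb2low CDPs, and 7.81, 7.66 and 7.44 in Zeb2hi CDPs. It fell by 2.47-fold in pre-CD8 DCs (adjusted p = 0.00984) and missed the threshold in Zeb2low CDPs (-0.76 ± 0.23, adjusted p = 0.0556). The Zeb2low difference of Timm21 passed with the replicate block on the CDP arrays (adjusted p = 0.0343) and not with the block on all arrays. Timm50, the presequence receptor of the complex, differed by -0.65 ± 0.32 and -0.49 ± 0.29, with adjusted p of 0.21 in pre-CD8 DCs and 0.264 in Zeb2low CDPs.

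In the import motor, Hspa9 and Timm44 fell in both comparisons. Hspa9, the mitochondrial Hsp70 that drives import by cycles of ATP, had log2 signals of 7.71 and 8.03 in pre-CD8 DCs, 8.33, 8.13 and 8.23 in Zeb2low CDPs, and 9.51, 9.75 and 9.63 in Zeb2hi CDPs. The 3 groups did not overlap, with Hspa9 3.38-fold lower in pre-CD8 DCs (-1.76 ± 0.16, adjusted p = 0.00044) and 2.64-fold lower in Zeb2low CDPs (-1.40 ± 0.15, adjusted p = 0.00169). Timm44, which anchors Hspa9 at the channel, had 6.58 and 6.55 in pre-CD8 DCs, 6.53, 6.45 and 6.30 in Zeb2low CDPs, and 7.11, 7.73 and 7.84 in Zeb2hi CDPs. All 5 arrays outside the Zeb2hi CDPs were below that group, at -0.99 ± 0.22 in pre-CD8 DCs (adjusted p = 0.0178) and -1.13 ± 0.20 in Zeb2low CDPs (adjusted p = 0.00966). Grpel1, the nucleotide exchange factor of Hspa9, was at -0.40 ± 0.19 and -0.57 ± 0.17, with adjusted p of 0.179 in pre-CD8 DCs and 0.0541 in Zeb2low CDPs. In Zeb2low CDPs its adjusted p was 0.0242 with the replicate block on the CDP arrays and 0.079 with the block on all arrays. Dnajc19, the J protein that stimulates Hspa9, was at -0.41 ± 0.23 and -0.07 ± 0.20, with adjusted p of 0.259 and 0.837.

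Pam16, the J-like partner that restrains Dnajc19, had the only positive difference above 0.1 in Zeb2low CDPs and was chosen for a full description after its values were seen. It had log2 signals of 7.77 and 8.72 in pre-CD8 DCs, 9.36, 8.85 and 9.42 in Zeb2low CDPs, and 8.42, 8.52 and 8.45 in Zeb2hi CDPs. Its Zeb2low CDP arrays were above all other arrays, with differences of 0.74 ± 0.25 from Zeb2hi CDPs (adjusted p = 0.081) and, for pre-CD8 DCs against Zeb2low CDPs, of -0.97 ± 0.28 (adjusted p = 0.202). The CDP arrays alone with the replicate number as a block gave an adjusted p of 0.0165 for the difference from Zeb2hi CDPs. With the block on all arrays Pam16 did not pass. Its 2 probe sets differed little, at 0.68 and 0.74 for Zeb2low minus Zeb2hi CDPs.

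Both chaperonin genes fell in both comparisons, and none of their groups overlapped on the probe sets that entered the fit. Hspd1 had log2 signals of 9.58 and 9.86 in pre-CD8 DCs, 10.48, 10.12 and 10.25 in Zeb2low CDPs, and 11.11, 10.86 and 10.96 in Zeb2hi CDPs. It was 2.39-fold lower in pre-CD8 DCs (-1.26 ± 0.18, adjusted p = 0.00264) and 1.62-fold lower in Zeb2low CDPs (-0.69 ± 0.16, adjusted p = 0.0225) than in Zeb2hi CDPs. Its other probe set gave larger differences, -1.67 in pre-CD8 DCs and -1.34 in Zeb2low CDPs. Hspe1, its lid, had 10.81 and 10.86 in pre-CD8 DCs, 11.01, 10.98 and 10.98 in Zeb2low CDPs, and 11.62, 11.60 and 11.57 in Zeb2hi CDPs. The range of its arrays within a group was 0.053 in pre-CD8 DCs, 0.033 in Zeb2low CDPs and 0.051 in Zeb2hi CDPs. It fell by 1.7-fold in pre-CD8 DCs (adjusted p = 0.00673) and 1.53-fold in Zeb2low CDPs (adjusted p = 0.0143). Its other probe set gave differences from Zeb2hi CDPs of -0.84 in pre-CD8 DCs and -0.80 in Zeb2low CDPs. On that probe set both pre-CD8 DC arrays (10.74 and 10.75) lay within the Zeb2low CDP range (10.69 to 10.85). With quantile normalisation both Zeb2low calls ended, at -0.30 for Hspd1 (adjusted p = 0.358) and -0.26 for Hspe1 (adjusted p = 0.263).

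**Figure D3:**
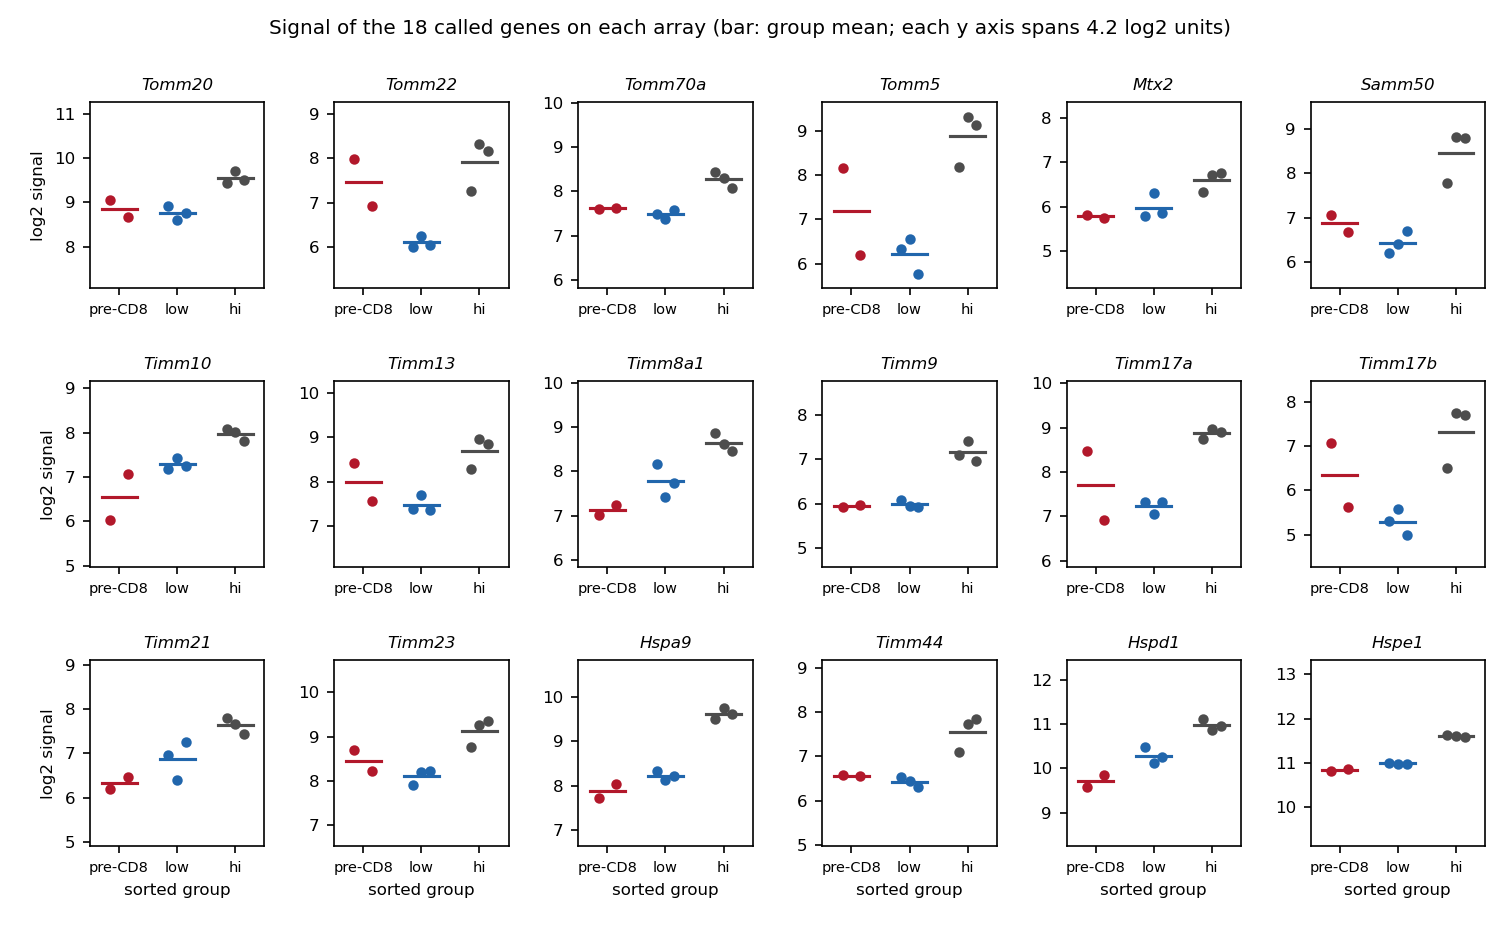
Log2 signal on each array for the 18 import genes called in a comparison with Zeb2hi CDPs, with pre-CD8 DCs (2 arrays) at left, Zeb2low CDPs (3) in the middle and Zeb2hi CDPs (3) at right; a point is an array and a bar a group mean. Tomm5 shows the widest gap between the 2 pre-CD8 DC arrays (8.17 and 6.19), and Hspa9, Hspd1, Hspe1, Timm10 and Timm8a1 step down from right to left without overlap.

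No import gene passed the test between pre-CD8 DCs and Zeb2low CDPs. By limma, 0 were called lower and 0 higher, while 0.217% of all genes were called lower and 0.337% higher. At an unadjusted p under 0.05 there were 4 lower and 1 higher of the 32, against 6.96% and 6.23% of all genes. The median difference was 0.12, against -0.03 over all genes, with 14 negative and 18 positive. Both pre-CD8 DC arrays lay above all Zeb2low CDP arrays for 6 genes (background 12.4%) and below them for 7 (background 15.4%). The largest differences were 1.35 ± 0.37 for Tomm22 (adjusted p = 0.175), 1.05 ± 0.47 for Timm17b (adjusted p = 0.392) and, below 0, -0.97 ± 0.28 for Pam16.

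The order of the 3 group means divided the genes. Zeb2hi CDPs had the highest mean for 29 genes. For 16 of them pre-CD8 DCs came next and Zeb2low CDPs last (16 of 32, against 17.7% of all genes), Tomm5, Tomm22 and Samm50 among them. For 13 the Zeb2low CDPs came next and pre-CD8 DCs last (40.6%, against 22.2%), and in Hspa9, Hspd1, Hspe1, Timm10 and Timm8a1 this order held with no overlap between any of the groups (15.6% of the import genes, against 3.29% of all genes). On the other probe set of Hspe1, however, pre-CD8 DCs and Zeb2low CDPs overlapped. Tomm20l, Tomm6 and Pam16 had 1 other order each. The order of pre-CD8 DCs and Zeb2low CDPs depended in part on pre-CD8 DC array 1. Without that array their median difference over the import genes went from 0.12 to -0.05, with 18 rather than 14 negative. For Tomm5 the difference was then -0.02, while Tomm22 and Samm50 stayed above 0 under every alternative. Between pre-CD8 DCs and Zeb2low CDPs, however, the differences of Hspa9 (-0.36 ± 0.16, adjusted p = 0.398), Hspd1 (-0.56 ± 0.18, adjusted p = 0.229) and Timm8a1 (-0.66 ± 0.23, adjusted p = 0.276) did not pass the test.

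Among the import genes, the 2 pre-CD8 DC arrays disagreed most on a few. Array 1 was over 2-fold above array 2 for Tomm5, Timm17a, Timm17b, Mtx1 and Tomm22, which is 15.6% of the import genes against 4.99% of all genes, and the gap for Tomm5 was 1.97 log2 units. It was over 2-fold below array 2 for Timm10 alone (3.12%, against 1.1%). The median gap between the arrays was 0.347 for the import genes and 0.283 for all genes. The arrays also differed in the neutrophil genes, and all 10 were higher on array 1. They ranged from S100a8, at 13.12 on array 1 and 12.96 on array 2, to Mmp9, at 10.96 and 6.59. Whether this bears on the import genes was not tested. With either array left out the pre-CD8 DC arm is a lone array, assumed to vary like the CDP arrays, which alone then give the spread. Under that assumption the Tomm5 difference from Zeb2hi CDPs was -2.68 without array 1 (adjusted p = 0.0136) and -0.71 without array 2 (adjusted p = 0.361). For Timm17a it was -1.96 without array 1 (adjusted p = 0.00227) and -0.40 without array 2 (adjusted p = 0.236). Between pre-CD8 DCs and Zeb2low CDPs, array 1 alone let Timm10 (-1.26, adjusted p = 0.0437) and Pam16 (-1.44, 0.0474) pass as lower and Timm17a (1.24, 0.0442) as higher.

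**Figure D4:**
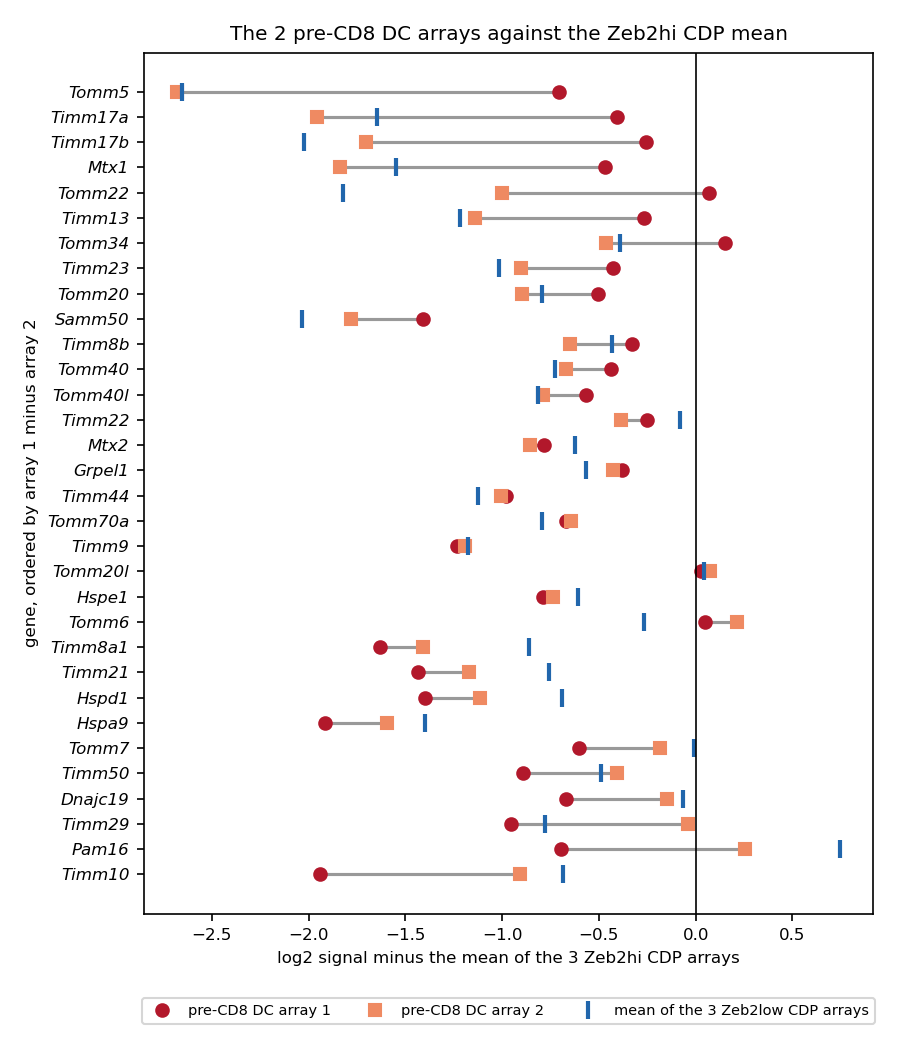
Log2 signal of each import gene on pre-CD8 DC array 1 (circles) and array 2 (squares), with the mean of the 3 Zeb2low CDP arrays (ticks), each minus the mean of the 3 Zeb2hi CDP arrays (vertical line at 0); genes are ordered by array 1 minus array 2. Array 1 minus array 2 is 1.97 for Tomm5 at the top and -1.04 for Timm10 at the bottom, and the arrays nearly coincide for Timm9, Tomm70a and Timm44.

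As a description over the 8 arrays, which share their groups and their processing, the genes most like Tomm5 were Timm13 (r = 0.990), Timm17b (0.984), Timm17a (0.953), Timm23 (0.949), Tomm22 (0.929), Tomm20 (0.920) and Samm50 (0.913), the 7 of 31 with r over 0.9. Pam16 (-0.708), Tomm20l (-0.402), Dnajc19 (-0.185) and Tomm7 (-0.128) were negative. With the mean of the other import genes, 23 of 32 had r over 0.7. The shares of all genes that reach such r were not computed, so these counts do not set the import genes apart. Genes that differ between the same groups have a high r by that difference.

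Other genes of protein import, from a written list of 20 of which 19 were measured, also had negative medians against Zeb2hi CDPs. In pre-CD8 DCs 6 fell and 0 rose against Zeb2hi CDPs, with a median of -0.57, and in Zeb2low CDPs 8 fell and 0 rose, with a median of -0.47. Of all genes, 11.1% were called lower and 6.51% higher in pre-CD8 DCs, and 10.3% and 4.5% in Zeb2low CDPs. The largest falls in pre-CD8 DCs were Chchd4, the oxidoreductase that traps small proteins in the intermembrane space (-1.33 ± 0.15, adjusted p = 0.0012), Trap1, the mitochondrial Hsp90 (-1.03 ± 0.20, adjusted p = 0.0099), and Immp1l, an inner membrane peptidase (-0.93 ± 0.25, adjusted p = 0.0365). In Zeb2low CDPs they were Mtch1, an outer membrane protein (-1.18 ± 0.28, adjusted p = 0.0245), Immp1l (-0.93 ± 0.23, adjusted p = 0.0286) and Dnajc15, a J protein related to Dnajc19 (-0.81 ± 0.17, adjusted p = 0.0186).

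Of 12 measured genes for mitochondrial proteases and the MICOS complex, which shapes the inner membrane, 5 fell in pre-CD8 DCs (median -0.62) and 6 in Zeb2low CDPs (median -0.63) against Zeb2hi CDPs, and none rose. The shares of all genes called lower were 11.1% and 10.3%. Lonp1, the main matrix protease, fell in both, at -1.16 ± 0.22 in pre-CD8 DCs (adjusted p = 0.00905) and -1.13 ± 0.20 in Zeb2low CDPs (adjusted p = 0.0091). Clpp, the peptidase of the other matrix protease, was at -1.01 ± 0.26 (adjusted p = 0.0291) and -0.88 ± 0.23 (adjusted p = 0.0366). The MICOS gene Apool had the largest fall in pre-CD8 DCs (-1.22 ± 0.21, adjusted p = 0.00649), and Immt, the core of MICOS, was at -0.96 ± 0.15 in Zeb2low CDPs (adjusted p = 0.00579). In neither list did a gene pass the test between pre-CD8 DCs and Zeb2low CDPs (limma, 0 of 19 and 0 of 12), where only 0.554% of all genes passed.

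The counts of called genes depended on single arrays. Leaving out Zeb2hi CDP array 2 left 3 genes lower in Zeb2low than in Zeb2hi CDPs, Hspa9, Samm50 and Timm9, when 2.68% of all genes were called lower. Leaving out Zeb2hi CDP array 3 left 5 (3.04% of all genes), and leaving out array 1 gave 18 (10.6% of all genes), 13 of them among the 15. Of the 15, Hspa9, Samm50 and Timm9 alone passed with every array left out in turn. In pre-CD8 DCs, 8 to 15 genes were called lower, with 7 to 12 of the original 12 among them, and Hspa9, Hspd1, Hspe1, Timm10, Timm8a1 and Timm9 passed each time; without a pre-CD8 DC array these calls rest on a lone array.

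**Figure D5:**
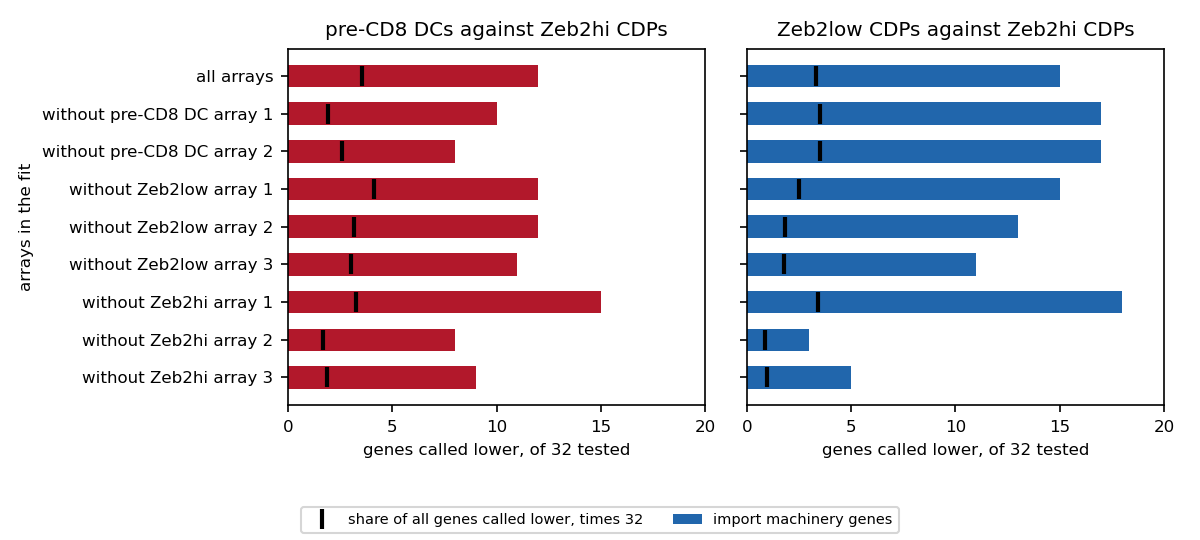
Number of import genes, of 32, called lower than in Zeb2hi CDPs with all arrays and with each array left out in turn, for pre-CD8 DCs (left) and Zeb2low CDPs (right); the black tick is the number that the share of all genes called lower would give. Without Zeb2hi CDP array 2 the Zeb2low bar is 3 long, against 15 with all arrays, and every bar passes its tick.

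For 7 genes several probe sets were measured (Hspd1, Hspe1, Pam16, Timm17a, Timm23, Timm8a1 and Tomm20), and the sign of each difference from Zeb2hi CDPs was the same on all of them. Their sizes varied, from -1.65 to -0.97 over the 4 probe sets of Timm23 in Zeb2low CDPs and from -1.18 to -0.33 over the 2 of Timm17a in pre-CD8 DCs. Some of these genes have near-identical copies in the genome, and the probe sets cannot be placed without their coordinates, so their values are uncertain to that extent.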

How the data were processed

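Per the labels' protocols, RNA of sorted cells was amplified with a NuGen Ovation Pico kit for hybridisation. The table that the authors deposited holds 1 linear intensity per probe set and array; the submitters' processing notes name RMA (robust multi-array average) and Affymetrix Expression Console, with no version. RMA gives no detection call and compresses differences close to its floor.

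The platform annotation gave 21789 of 28853 probe sets exactly 1 gene, 1621 several and 5443 none, and the last 2 kinds were left out. All 33 member symbols were unchanged in the RefSeq gene table of GRCm38.p6. Timm10b was not included, because its probe set is shared with another gene. After log2 transformation, a probe set was kept if it exceeded the 40th percentile of the array on 2 or more arrays, and the probe set with the highest mean stood for its gene. All 8 arrays entered 1 fit in limma 3.58.1 (lmFit and eBayes, two-sided, 5 residual degrees of freedom) in R 4.3.3, tested on simulated data first, with Benjamini-Hochberg adjustment over 13356 genes at 0.05. "Fell" and "rose" are used of genes past that threshold, a value after ± is a standard error, and the number of arrays limits the precision. Levels of different probe sets were not compared.

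Members and lists were chosen with earlier results of these data known. Genes past the test, Tomm5 and the largest difference of each role group are given on all arrays; of the other lists, up to 3 genes per direction and comparison. Groups and replicate numbers come from the titles. Same-numbered Zeb2low and Zeb2hi CDP arrays deviated from their group means together across genes (r = 0.478, 0.407 and 0.308, against -0.425 to 0.143 for other pairs). In the alternative fits with a replicate block the numbers were therefore taken to pair them, a pairing inferred from these data that the labels do not state. The main fit holds no replicate term, so its p-values do not use this pairing. Over the import genes alone the same-numbered values were 0.597, 0.61 and -0.055, while Zeb2low CDP array 2 with Zeb2hi CDP array 3 gave 0.682. For the pre-CD8 DC arrays the values over all genes were -0.401 and -0.587 with Zeb2low CDPs and -0.172 and -0.312 with Zeb2hi CDPs. The alternatives were other filters, quantile normalisation, centred medians, array weights, an intensity trend, separate fits, averaged probe sets, the replicate block and each array left out in turn. A further fit left out both Zeb2low CDP array 1 and pre-CD8 DC array 1. The lowest probe set of each gene was added after seeing the data.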

Additional observations from a re-analysis of the deposited data

How the results depend on the processing

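The count of import genes called lower in Zeb2low than in Zeb2hi CDPs was 15. It was 23 with centred array medians, which moved the median of all genes by over 0.1, to -0.14 against 0.03, and the share of all genes called lower and higher to 16.7% and 2.78%, against 10.3% and 4.5%. It was 25 with array weights, which called 20% of all genes lower and 13.5% higher, and 24 with the replicate block on the CDP arrays alone (19% and 11.5%). With each array left out in turn it was 3 to 18. The other alternatives gave 12 (quantile normalisation, 7.19% of all genes) to 17. The count called higher, 0, was 1 with array weights, with only the 2 groups compared and with the replicate block on the CDP arrays, and 0 to 1 with an array left out. In pre-CD8 DCs against Zeb2hi CDPs, 12 genes were lower, 8 with the replicate block on all arrays and 8 to 15 with an array left out, and 0 were higher in each. Between pre-CD8 DCs and Zeb2low CDPs, 0 to 2 were lower and 0 to 1 higher with an array left out. Of the single gene values under all alternatives, no sign was reversed in a called gene; against Zeb2hi CDPs in Zeb2low CDPs, 37 of 300 values of called genes lost the call and 51 of 339 of the other genes gained one, and in pre-CD8 DCs 30 of 228 and 13 of 379. The causes were not tested. With 2 or 3 arrays a group and no detection call, small differences and low signals, such as those of Tomm20l, could not be resolved.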
